A study of Homo sapiens with 27 samples.

Results

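Cells of the human small cell lung cancer line SHP77 carrying circRMST shRNA 1 were compared directly with cells carrying circRMST shRNA 2, to ask which genes depend on the reagent or on the strength of the knockdown. Both hairpins are labelled as knockdowns of circRMST, a circular RNA of the long noncoding gene RMST, and each was sequenced in 2 libraries. Of 41686 human genes in the table, the 13573 whose normalized counts averaged 50 or more over these 4 libraries were compared. The nearest genes above that limit were LMTK3 at 50.01, CCDC89 at 50.03 and HYDIN2 at 50.04, and the nearest below it stood at 49.99, 49.91 and 49.89. All cells were infected with lentivirus and then kept in puromycin, an antibiotic that kills cells without the vector, at 3 µg/ml for 3 days or longer. Total RNA was sequenced in read pairs of 150 bases. The control hairpin shGFP, against a jellyfish protein that these cells lack, was carried by 2 further libraries of the same table, which serve here only as reference levels. The labels do not say whether the replicates of a hairpin were separate infections.

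A short hairpin RNA is made from the lentiviral vector in the nucleus, cut by the enzyme DICER1 into a small double-stranded RNA and loaded into an Argonaute protein, which then finds RNAs that pair with it. Hairpins of different sequence against the same target share the target, but each can also pair in part with other transcripts, and they can differ in how far they lower the target. Small cell lung cancer of the type that SHP77 belongs to is a neuroendocrine tumour: transcription factors such as INSM1 drive a programme of secretory granule, peptide hormone and synaptic genes. The hairpin sequences and the circle's junction were not used here.

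Sequencing depth was similar in the 4 knockdown libraries, at 51.0 and 54.6 megareads (M) with shRNA 1 and 57.4 and 52.4 M with shRNA 2. The ribosomal RNA of mitochondria MT-RNR2 took 41.7 to 42.0% of reads with shRNA 1 and 44.3 to 45.4% with shRNA 2, and RN7SL genes, which encode the RNA of the signal recognition particle, took 0.439 to 0.467% and 0.379 to 0.398%. The shGFP libraries (46.9 and 51.0 M) stood apart, with 35740 and 36964 genes that had a read against 26593 to 27144 in the knockdown libraries. RN7SL genes took 0.180 to 0.186% of their reads and MT-RNR2 40.5 to 41.1%, and their normalized counts summed to 48.1 and 48.4 M against 52.7 to 54.1 M. The part of these differences in the results below was not tested. The neuroendocrine markers INSM1, CHGA, SYP, NCAM1, DLL3 and GRP were all present in all 4 libraries. Their summed level was 21791 to 22668 with shRNA 1 and 17331 to 18093 with shRNA 2, both below the 25542 and 27493 of shGFP. The single markers did not share this direction. GRP, INSM1 and SYP lay below shGFP with both hairpins, and CHGA lay above it with both. NCAM1 lay above it with shRNA 1 and below it with shRNA 2. DLL3 lay below it with shRNA 1 and overlapped it with shRNA 2. GRP was at 729 and 723 with shRNA 1, 959 and 1052 with shRNA 2, and 6028 and 5918 in shGFP. Of the factors that mark other subtypes of this cancer, POU2F3 and YAP1 had no read in the 4 libraries, and NEUROD1 had 2 reads in 1 library. Of 8 fibroblast markers, COL1A2 and COL3A1 reached at most 2.07, and the list's sum of 806 to 879 with shRNA 1 and 468 to 535 with shRNA 2 came mainly from LUM. The 5 blood markers summed to 15.6 to 27.9, mostly CD14, and the 4 endothelial markers to 147 to 182, nearly all PECAM1.

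In limma's fit of log2(normalized count + 1), 3665 of the 13573 genes (27%) differed between shRNA 1 and shRNA 2 at an adjusted p under 0.05, of which 2147 (15.8%) were higher with shRNA 1 and 1518 (11.2%) were higher with shRNA 2. Most differences were small: the median was 1.30-fold in either direction, and 224 genes (1.65%) passed with a difference of at least 2-fold, 148 (1.09%) higher with shRNA 1 and 76 (0.56%) higher with shRNA 2. At an unadjusted p under 0.05 there were 5393 genes (39.7%), and over all 18027 genes tested, the lower ones included, 3816 passed (21.2%). Both libraries of a hairpin lay beyond both of the other in 8619 genes (63.5%), and in all of the 3665 that passed.

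The direction of the small differences depended on how the libraries were scaled. As deposited, 58.6% of the genes that passed were higher with shRNA 1, against 37.9% (1450 higher with shRNA 1, 2372 with shRNA 2) when library totals were equalized without mitochondrial and RN7SL genes, and 48.6% (1685 and 1785) after quantile normalization. The count also rests on the spread being fitted as a function of level: limma without that trend called 0 genes, with 3418 at an unadjusted p under 0.05, whereas edgeR called 3668 and DESeq2 3108.

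**Figure D1:**
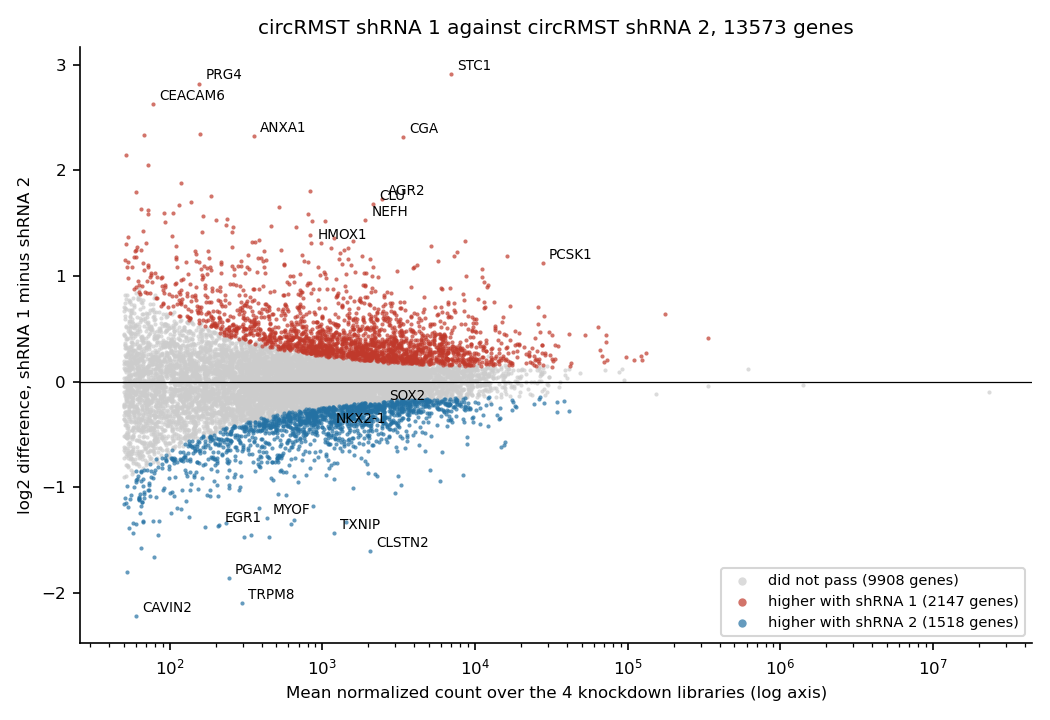
Each point is 1 of the 13573 genes: the x axis is its mean normalized count over the 4 knockdown libraries (log axis) and the y axis its log2 difference, shRNA 1 minus shRNA 2. Red points (2147) passed and were higher with shRNA 1, blue points (1518) passed and were higher with shRNA 2, and most of both lie within 2-fold of 0.

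The distance between the hairpins was larger than that between replicates and smaller than that of either to the control. Over the 13573 genes, the median absolute log2 difference was 0.097 between the shRNA 1 replicates, 0.10 between the shRNA 2 replicates and 0.11 between the shGFP replicates. Between the mean levels of shRNA 1 and shRNA 2 it was 0.18, against 0.35 from shRNA 1 to shGFP and 0.31 from shRNA 2 to shGFP. Means differed from shGFP by at least 2-fold in 1457 genes (10.7%) with shRNA 1 and in 1050 (7.74%) with shRNA 2, values that share the shGFP libraries and carry no test.

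RMST itself (ENSG00000255794.6, chromosome 12, 97462804 to 97565035, GRCh38.p14), the long noncoding gene that the circle is made from, was at 289 and 262 with shRNA 1, 234 and 285 with shRNA 2, and 275 and 304 in shGFP. The hairpins overlapped in RMST and the difference did not pass (log2 difference 0.09, SE 0.15, adjusted p = 0.732). This entry counts the whole gene and checks nothing about the circle, whose level was not analysed here, so which hairpin lowered the circle more cannot be told from these values.

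NKX2-1, the transcription factor of lung lineage, was at 881 and 1005 with shRNA 1, 1385 and 1166 with shRNA 2, and 1419 and 1485 in shGFP. NKX2-1 was higher with shRNA 2 (log2 difference -0.43, SE 0.096, adjusted p = 0.0027), and both knockdowns lay below shGFP. SOX2, a stem cell and lineage factor, was at 2236 and 2408 with shRNA 1, 2639 and 2723 with shRNA 2, and 1997 and 2229 in shGFP. SOX2 was also higher with shRNA 2 (log2 difference -0.21, SE 0.067, adjusted p = 0.0327), by 1.16-fold, and all 4 knockdown libraries lay above both shGFP libraries. The SOX2 call was lost without shRNA 1 replicate 1 (adjusted p = 0.250), without shRNA 2 replicate 1 (adjusted p = 0.0577) and without shRNA 2 replicate 2 (adjusted p = 0.134).

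The largest difference in favour of shRNA 1 was in STC1. STC1, which encodes the secreted glycoprotein stanniocalcin (ENSG00000159167.11, chromosome 8, 23841929 to 23854806), was at 12214 and 12478 with shRNA 1, 1571 and 1717 with shRNA 2, and 1898 and 1985 in shGFP. STC1 was 7.51-fold higher with shRNA 1 (log2 difference 2.91, SE 0.061, adjusted p = 3.66e-17), and shRNA 2 lay just below the control. PRG4, which encodes the lubricating glycoprotein lubricin, was at 272 and 278 with shRNA 1, 41.3 and 35.1 with shRNA 2, and 25.7 and 26.6 in shGFP (log2 difference 2.82, SE 0.22, adjusted p = 2.13e-08). ANXA1 (ENSG00000135046.13, chromosome 9, 73151865 to 73170393), which encodes a membrane-binding annexin that marks non-neuroendocrine cells, was at 589.7 and 600.5 with shRNA 1, 129.6 and 107 with shRNA 2, and 14.4 and 12.3 in shGFP. ANXA1 differed 5.01-fold between the hairpins (log2 difference 2.32, SE 0.15, adjusted p = 1.23e-09), and both hairpins lay far above the control, with no overlap between any groups.

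CGA, the common subunit of the glycoprotein hormones, showed the reverse position relative to shGFP. It was at 5903 and 5252 with shRNA 1, 1092 and 1152 with shRNA 2, and 12304 and 11568 in shGFP. CGA was 4.96-fold higher with shRNA 1 than with shRNA 2 (log2 difference 2.31, SE 0.071, adjusted p = 2.75e-14), while both hairpins lay below the control. DCX, the microtubule protein doublecortin of young neurons, was at 110.0 and 78.2 with shRNA 1, 21.1 and 32.0 with shRNA 2, and 179.8 and 178 in shGFP (log2 difference 1.79, SE 0.34, adjusted p = 6.41e-04). SPNS2, an exporter of the lipid signal sphingosine-1-phosphate, was at 125 and 101 with shRNA 1, 34.0 and 13.4 with shRNA 2, and 263 and 195 in shGFP (log2 difference 2.33, SE 0.38, adjusted p = 1.54e-04). In DCX and SPNS2, as in CGA, shRNA 2 was the hairpin farther below the control.

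Of the other genes among the 12 that most favoured shRNA 1, IL6, an inflammatory cytokine, was at 78.6 and 86.1 with shRNA 1, 10.1 and 31.0 with shRNA 2, and 10.3 and 8.54 in shGFP (log2 difference 2.14, SE 0.43, adjusted p = 0.00123). S100P, a calcium-binding protein, was at 123 and 111 with shRNA 1, 29.4 and 25.8 with shRNA 2, and 27.7 and 19.9 in shGFP (log2 difference 2.05, SE 0.29, adjusted p = 4.25e-05). SCUBE1, a secreted and cell-surface glycoprotein, was at 1279.9 and 1293 with shRNA 1, 425 and 317 with shRNA 2, and 406 and 461 in shGFP (log2 difference 1.81, SE 0.12, adjusted p = 1.50e-09). In S100P and SCUBE1 shRNA 1 stood alone above the other 4 libraries, and in IL6 it also lay above all of them. CEACAM6, a cell adhesion molecule, BCO2, a carotenoid-cleaving enzyme of mitochondria, and SELENOP, a secreted selenium carrier, were 6.16-fold, 5.07-fold and 3.67-fold higher with shRNA 1 (adjusted p = 2.43e-05, 1.38e-06 and 6.01e-06). SELENOP was at 191 and 183 with shRNA 1, within the range of the shGFP libraries at 221 and 161, and at 46.9 and 53.7 with shRNA 2.

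**Figure D2:**
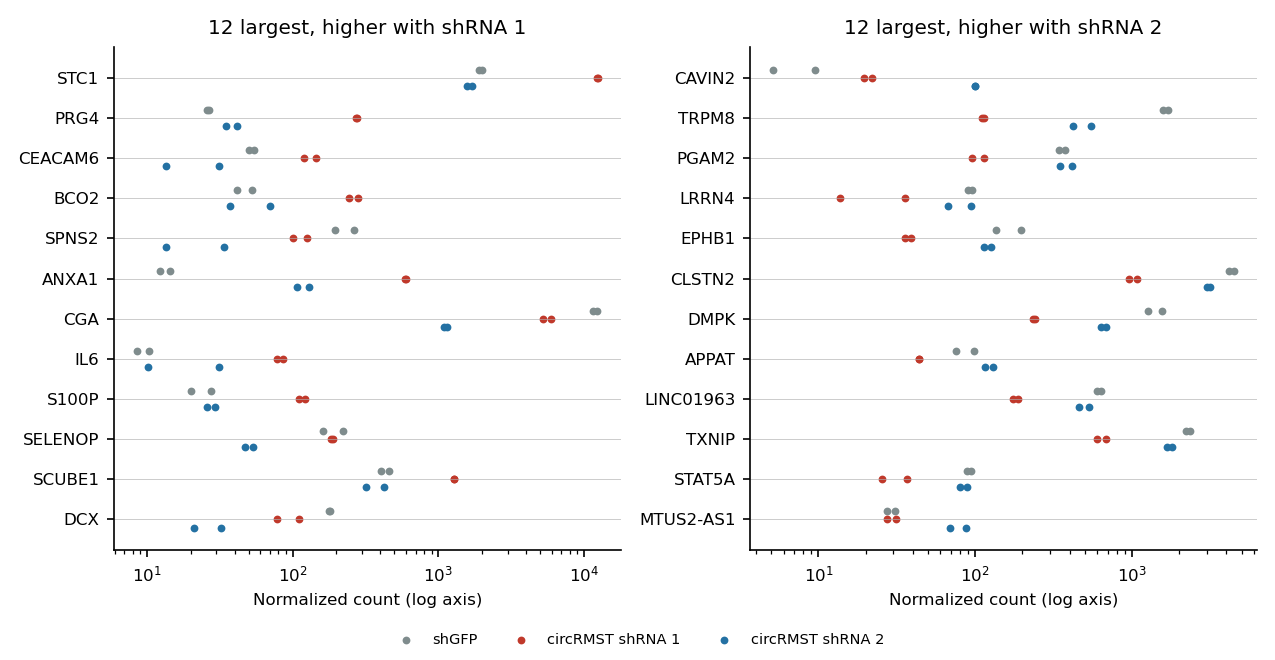
Normalized counts (x axis, log) of the 12 genes with the largest passed difference in each direction, 1 point per library, grey for shGFP, red for shRNA 1 and blue for shRNA 2. The 24 genes were chosen to have no overlap between the libraries of the hairpins. The shGFP level lies now near shRNA 1 (SELENOP, MTUS2-AS1), now near shRNA 2 (STC1, PGAM2) and now beyond both (CGA, TRPM8).

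The largest difference in favour of shRNA 2 was in CAVIN2. CAVIN2, a coat protein of the membrane pits called caveolae (ENSG00000168497.4, chromosome 2, 191834310 to 191847088), was at 22.0 and 19.6 with shRNA 1, 100.2 and 100.2 with shRNA 2, and 5.14 and 9.49 in shGFP. CAVIN2 was 4.65-fold higher with shRNA 2 (log2 difference -2.22, SE 0.33, adjusted p = 5.34e-05), with both hairpins above the control. TRPM8, the cold- and menthol-sensing ion channel (ENSG00000144481.16, chromosome 2, 233917373 to 234019522), was at 110.0 and 113 with shRNA 1, 549 and 418 with shRNA 2, and 1708 and 1574 in shGFP. TRPM8 was 4.26-fold higher with shRNA 2 (log2 difference -2.09, SE 0.16, adjusted p = 1.83e-08), and shRNA 1 was the hairpin farther below shGFP. CLSTN2, a synaptic adhesion protein, was at 963 and 1075 with shRNA 1, 3160.0 and 3017 with shRNA 2, and 4156 and 4474 in shGFP (log2 difference -1.60, SE 0.076, adjusted p = 1.68e-11).

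PGAM2, the muscle form of the glycolytic enzyme phosphoglycerate mutase, was at 113 and 95.8 with shRNA 1, 348 and 415 with shRNA 2, and 342 and 372 in shGFP (log2 difference -1.86, SE 0.17, adjusted p = 1.55e-07). TXNIP, which binds thioredoxin and restrains glucose uptake, was at 681 and 599 with shRNA 1, 1791 and 1666 with shRNA 2, and 2218 and 2345 in shGFP (log2 difference -1.43, SE 0.089, adjusted p = 9.81e-10). DMPK, a protein kinase of muscle, was at 242 and 233 with shRNA 1, 678 and 636 with shRNA 2, and 1264 and 1544 in shGFP (log2 difference -1.47, SE 0.12, adjusted p = 3.34e-08). In TXNIP and DMPK both hairpins lay below the control and shRNA 1 lay lower, whereas in PGAM2 shRNA 2 stood within or just above the range of shGFP. EPHB1, an ephrin receptor, LRRN4, a membrane protein with leucine-rich repeats, STAT5A, a transcription factor of cytokine signalling, and the long noncoding LINC01963 and APPAT were 3.15-fold, 3.48-fold, 2.70-fold, 2.73-fold and 2.74-fold higher with shRNA 2. MTUS2-AS1, an antisense transcript whose reads may belong in part to the other strand, was 2.61-fold higher with shRNA 2 (adjusted p = 0.00441), a call lost without shRNA 2 replicate 1 (adjusted p = 0.0547).

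Among abundant genes, with a mean of at least 1000, AGR2, a protein disulfide isomerase of secretory cells, was at 3829 and 3704 with shRNA 1, 1109 and 1161 with shRNA 2, and 1118 and 1158 in shGFP (log2 difference 1.73, SE 0.069, adjusted p = 2.31e-12). AGR2 was thus at the control level with shRNA 2. CLU, the secreted chaperone clusterin, was at 3259 and 3313 with shRNA 1, 1042 and 1005 with shRNA 2, and 188 and 297 in shGFP (log2 difference 1.68, SE 0.07, adjusted p = 3.47e-12). NEFH, the heavy neurofilament subunit, was at 2768 and 2918 with shRNA 1, 1039 and 937 with shRNA 2, and 532 and 519 in shGFP (log2 difference 1.53, SE 0.076, adjusted p = 4.10e-11). Both hairpins lay above shGFP in CLU and NEFH, and shRNA 1 lay higher. EDIL3, a secreted integrin ligand, was at 1651 and 1439.6 with shRNA 1, 486 and 591 with shRNA 2, and 1275 and 1170.3 in shGFP (log2 difference 1.52, SE 0.10, adjusted p = 2.40e-09). EDIL3 lay above the control with shRNA 1 and below it with shRNA 2.

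Higher with shRNA 2 among abundant genes were FREM2, a basement membrane protein, at 839 and 790.2 with shRNA 1, 1941 and 2165 with shRNA 2, and 1673 and 1739.8 in shGFP (log2 difference -1.33, SE 0.082, adjusted p = 9.54e-10). COLCA1 was at 1955 and 1956 with shRNA 1, 4144 and 3988 with shRNA 2, and 6321 and 6349 in shGFP (log2 difference -1.06, SE 0.063, adjusted p = 5.97e-10). FREM2 lay above the control with shRNA 2 and below it with shRNA 1, and COLCA1 lay below it with both. RPL22L1 and RPL7L1, which encode paralogs of ribosomal proteins, were 2.01-fold and 1.97-fold higher with shRNA 2 (adjusted p = 5.06e-08 and 4.02e-09), and their counts may share reads with close copies.

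Relative to shGFP, the genes that passed fell into 3 kinds. Means of the hairpins lay on opposite sides of the shGFP mean in 1073 of the 3665 genes (29.3%, against 16.9% of all 13573). Both lay on the same side with shRNA 1 farther away in 1177 genes above (32.1%, against 29% of all) and 653 below (17.8%, against 19.2%). Both lay on the same side with shRNA 2 farther away in 381 genes above (10.4%, against 20.3%) and 381 below (10.4%, against 14.5%). Of the 224 genes with at least 2-fold difference, 92 (41.1%) were on opposite sides. These positions are a description without a test. Genes that passed were selected on the difference between the hairpins. That selection can by itself raise the shares on opposite sides of shGFP, or with 1 hairpin alone near it, here and below.

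**Figure D3:**
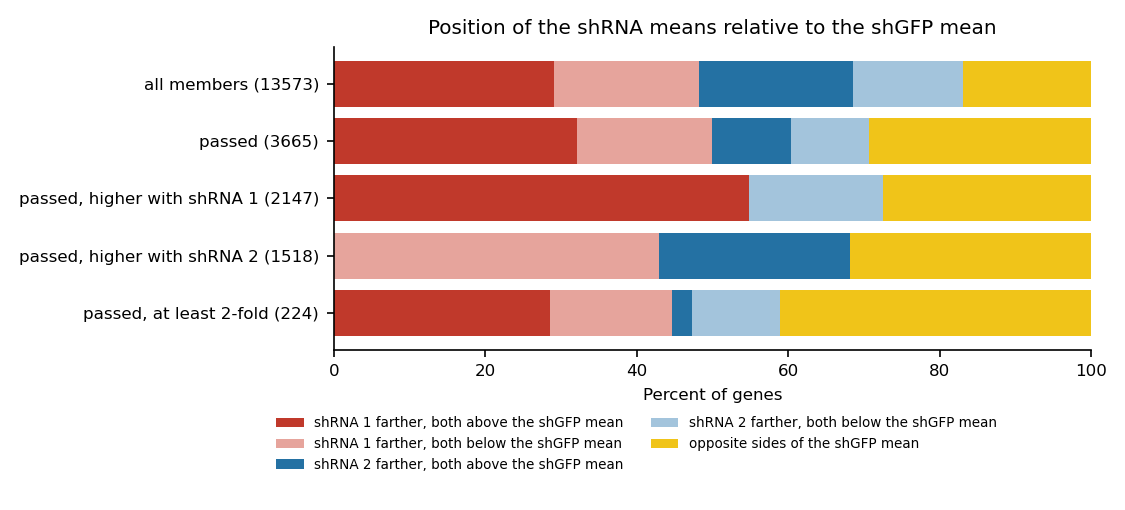
Bars give the percent of genes (x axis) by the position of the hairpins' mean levels relative to the shGFP mean, for all 13573 genes and for those that passed. Genes with the hairpins on opposite sides of shGFP (yellow) make up 16.9% of all genes, 29.3% of those that passed and 41.1% of those that passed with at least 2-fold. Selection on the difference between the hairpins can by itself raise this share.

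A stricter reading asked that every library of a hairpin lie above both shGFP libraries and every library of the other below both. This held for 290 passed genes with shRNA 1 above and 215 with shRNA 2 above, and for 340 and 276 of all 13573. WNT11, a Wnt ligand, was at 110.0 and 108 with shRNA 1, 31.2 and 38.2 with shRNA 2, and 75.0 and 85.4 in shGFP (log2 difference 1.63, SE 0.29, adjusted p = 3.42e-04). SLC18A1, the vesicular transporter that loads monoamines into granules, was at 383 and 319.8 with shRNA 1, 120.4 and 119.8 with shRNA 2, and 163 and 189.8 in shGFP (log2 difference 1.54, SE 0.16, adjusted p = 1.15e-06). FMNL1, an actin-nucleating formin, was at 148 and 130.1 with shRNA 1, 45.9 and 44.4 with shRNA 2, and 99.7 and 92.1 in shGFP (log2 difference 1.60, SE 0.25, adjusted p = 1.11e-04). With STC1 and CEACAM6, these were the 5 largest with shRNA 1 above. In the other direction CATSPERG, a subunit of the sperm calcium channel, was at 78.6 and 77.3 with shRNA 1, 193 and 187 with shRNA 2, and 132 and 163 in shGFP (log2 difference -1.27, SE 0.20, adjusted p = 1.27e-04). FREM2, APPAT and the pseudogenes ZSCAN12P1 and TUBA5P, whose reads may be shared with their parent genes, were the others of the largest 5.

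In further genes 1 hairpin alone stayed near the control level in both libraries, while the other had at least 1 library outside that window. Both shRNA 2 libraries but not both of shRNA 1 stayed at most 25% above and 20% below the shGFP mean in 932 passed genes (25.4%), and the reverse held in 614 (16.8%), against 15% and 12.1% of all 13573 genes. EPAS1, a hypoxia-inducible transcription factor, was at 192 and 231 with shRNA 1, 70.8 and 57.8 with shRNA 2, and 74.0 and 70.2 in shGFP (log2 difference 1.70, SE 0.22, adjusted p = 1.01e-05). ROBO2, an axon guidance receptor, was at 369.7 and 331 with shRNA 1, 890.4 and 893 with shRNA 2, and 843 and 933 in shGFP (log2 difference -1.35, SE 0.11, adjusted p = 2.13e-08). EGR1, an immediate early transcription factor, was at 123 and 109.5 with shRNA 1, 323 and 279 with shRNA 2, and 266 and 404 in shGFP (log2 difference -1.36, SE 0.17, adjusted p = 8.37e-06). In EPAS1 and ROBO2 shRNA 2 stood near the control and shRNA 1 apart from it, above in EPAS1 and below in ROBO2, while the shGFP replicates of EGR1 themselves spread widely.

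The converse genes stayed near shGFP with shRNA 1. KIAA1191 was at 1211 and 1198 with shRNA 1, 432 and 372 with shRNA 2, and 1332 and 1285 in shGFP (log2 difference 1.59, SE 0.10, adjusted p = 1.24e-09). DOHH, the enzyme that completes the hypusine residue of the translation factor eIF5A, was at 250.3 and 226 with shRNA 1, 97.4 and 80.6 with shRNA 2, and 216 and 234 in shGFP (log2 difference 1.41, SE 0.19, adjusted p = 2.26e-05). MYOF, the membrane repair protein myoferlin, was at 256 and 244 with shRNA 1, 578 and 648 with shRNA 2, and 289.7 and 233 in shGFP (log2 difference -1.29, SE 0.12, adjusted p = 2.68e-07). With shRNA 2, KIAA1191 and DOHH lay below the control and MYOF above it, while with shRNA 1 they stayed within the window, KIAA1191 also slightly below both shGFP libraries.

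The gene lists below were read against the share of all 13573 genes that passed, 27%. That share rose with level, from 9.24% at means of 50 to 100 to 41.9% above 3000. Above 3000, 694 genes were higher with shRNA 1 and 285 with shRNA 2. The lists were not matched for level, so 27% is a low yardstick for lists of abundant genes. Lineage transcription factors differed in 1 direction: 8 of 17 were higher with shRNA 2 and 0 higher with shRNA 1 (median log2 difference -0.21), and this direction held under every scaling tried. Without shRNA 1 replicate 1, 5 were higher with shRNA 2. INSM1, a zinc finger factor of neuroendocrine cells (ENSG00000173404.4, chromosome 20, 20368104 to 20370949), was at 1860.2 and 1919.8 with shRNA 1, 2597 and 2578 with shRNA 2, and 5159 and 6024 in shGFP. INSM1 was 1.37-fold higher with shRNA 2 (log2 difference -0.45, SE 0.067, adjusted p = 5.58e-05), and both hairpins lay below the control. ONECUT2, a homeobox factor, was at 3898 and 3950.0 with shRNA 1, 5284 and 5679 with shRNA 2, and 3769.8 and 3612 in shGFP (log2 difference -0.48, SE 0.059, adjusted p = 6.61e-06), and ID1 and ID2, inhibitors of helix-loop-helix factors, differed by -0.36 and -0.35 on the log2 scale. MYCL, the MYC family member typical of this subtype, was at 36.7 and 40.1 with shRNA 1, 89.1 and 67.1 with shRNA 2, and 257 and 282 in shGFP (log2 difference -0.99, SE 0.31, adjusted p = 0.0256), a call lost without shRNA 1 replicate 1 (adjusted p = 0.0843) and without shRNA 2 replicate 1 (adjusted p = 0.195).

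Neuroendocrine markers ran the other way. Of 27, 17 were higher with shRNA 1 and 2 higher with shRNA 2 (median log2 difference 0.33, 0.21 to 0.33 under the other scalings), or 3 without shRNA 2 replicate 2. The 2 were INSM1 and the peptide gene GRP, which was at 729 and 723 with shRNA 1, 959 and 1052 with shRNA 2, and 6028 and 5918 in shGFP (log2 difference -0.47, SE 0.091, adjusted p = 9.02e-04). PCSK1, a convertase that cuts prohormones in granules, was at 38644 and 37529 with shRNA 1, 17514 and 17496 with shRNA 2, and 20259 and 19916 in shGFP (log2 difference 1.12, SE 0.048, adjusted p = 4.67e-12). PCSK1 lay above the control with shRNA 1 and below it with shRNA 2. RTN1, a reticulon of the endoplasmic reticulum, was at 2798 and 2568 with shRNA 1, 1619 and 1687 with shRNA 2, and 839 and 808 in shGFP (log2 difference 0.70, SE 0.071, adjusted p = 5.96e-07). CHGA, the granule protein chromogranin A, was at 10795 and 11403 with shRNA 1, 8231 and 7605 with shRNA 2, and 6232 and 7015 in shGFP (log2 difference 0.49, SE 0.056, adjusted p = 2.69e-06). The convertase PCSK2 (0.51), the granins SCG2 (0.55) and CHGB (0.33), the adhesion molecule NCAM1 (0.52) and the synaptic vesicle protein SYP (0.44) were also higher with shRNA 1. Relative to shGFP, the median log2 difference of the list was 0.12 with shRNA 1 and -0.22 with shRNA 2. SYP, at 926 and 1188 in shGFP, lay below the control with both hairpins. NCAM1, at 6453 and 6478 in shGFP, lay above it with shRNA 1 and below it with shRNA 2.

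Neuronal genes had 10 of 23 higher with shRNA 1 and 1 higher with shRNA 2, CNTNAP2 (-0.40). NEFM, the medium neurofilament subunit, was at 6940.0 and 8805 with shRNA 1, 3802 and 3279 with shRNA 2, and 2325 and 2423 in shGFP (log2 difference 1.15, SE 0.086, adjusted p = 9.52e-09). GAP43, a protein of growing axons, was at 1816 and 2007 with shRNA 1, 956 and 928 with shRNA 2, and 687 and 642 in shGFP (log2 difference 1.02, SE 0.08, adjusted p = 1.98e-08). Both hairpins lay above the control in NEFM and GAP43. Of 6 peptide hormone genes, 3 were higher with shRNA 1, CALCB (0.71), CALCA (0.54) and ADCYAP1 (0.28), and 1 with shRNA 2, GRP, described above. CALCA and CALCB are close copies whose reads can be shared.

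**Figure D4:**
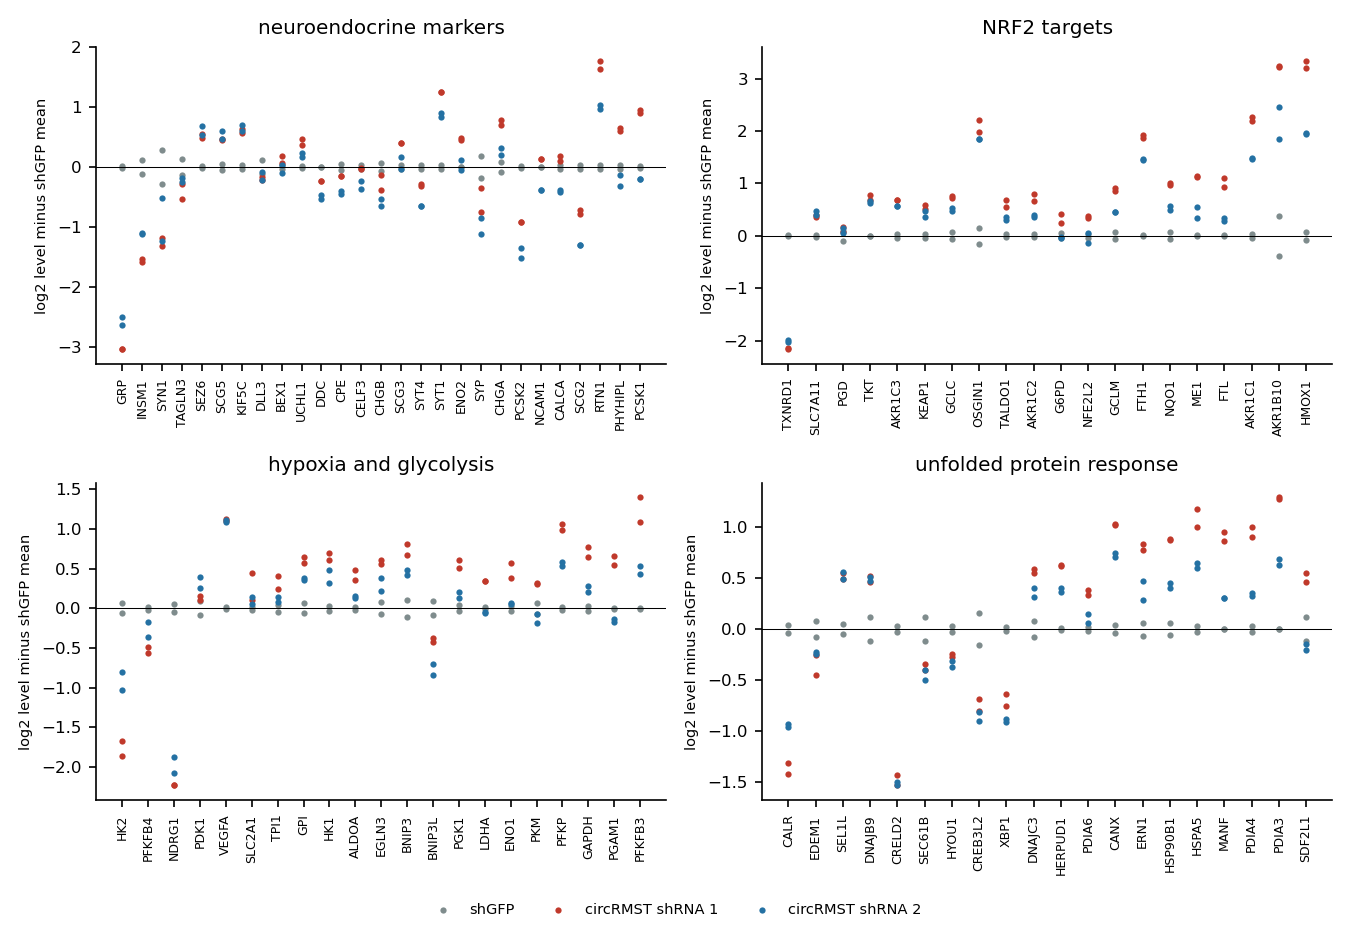
Level of each gene of 4 lists in every library, as log2(normalized count + 1) minus the shGFP mean (y axis), with genes ordered along the x axis by the difference between the hairpins; grey is shGFP, red shRNA 1 and blue shRNA 2. GRP lies far below shGFP with both hairpins and HMOX1 far above, and red lies above blue in most genes of each list.

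Targets of NRF2, the transcription factor of the antioxidant response, were higher with shRNA 1 in 14 of 20 genes and with shRNA 2 in 0 (median log2 difference 0.36, 0.26 to 0.36 under the other scalings, each of which called TXNRD1 the other way). HMOX1, which degrades haem (ENSG00000100292.16, chromosome 22, 35381096 to 35394207), was at 1259 and 1151 with shRNA 1, 489.8 and 481 with shRNA 2, and 132 and 118 in shGFP (log2 difference 1.31, SE 0.094, adjusted p = 5.91e-09). AKR1B10, an aldo-keto reductase, was at 239.9 and 236 with shRNA 1, 90.05 and 139 with shRNA 2, and 18.5 and 32.3 in shGFP (log2 difference 1.08, SE 0.20, adjusted p = 6.85e-04). The ferritin chains FTL (0.71) and FTH1 (0.44), malic enzyme ME1 (0.68), the quinone reductase NQO1 (0.45), the glutathione synthesis subunits GCLM (0.43) and GCLC (0.24) and NFE2L2 (0.40), which encodes NRF2, were higher with shRNA 1 as well. AKR1C1 (0.76) and AKR1C2 (0.36) are near copies, and their counts are uncertain. TXNRD1, the thioredoxin reductase, was at 5270.4 and 5358 with shRNA 1, 5842 and 5972 with shRNA 2, and 23844 and 23517 in shGFP. Its difference missed the threshold (log2 difference -0.15, adjusted p = 0.0567), while edgeR and DESeq2 called it.

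The 250 bases before the start of each gene (RefSeq, GRCh38.p14) were searched on both strands for TGACNNNGC, the core of the element that NRF2 binds, which can overlap the AP-1 site TGACTCA. The letters were present in 11% of 27305 promoters, in 12.3% of the 10199 with a gene of this comparison and in 4 of the 15 list genes with a promoter (GCLM, TXNRD1, PGD and ME1). Of the 10 with a promoter that were higher with shRNA 1, 2 held it. They are shown 5′ to 3′ along the strand of the gene, with the matching letters in capitals, because they are the list genes higher with shRNA 1 in which the element lies in this window. The window of ME1 is chr6:83431052-83431301 on the minus strand, with the match 137 bases before the start. That of GCLM is chr1:93909431-93909680 on the minus strand, with the match 34 bases before the start and in the reverse orientation.
ME1: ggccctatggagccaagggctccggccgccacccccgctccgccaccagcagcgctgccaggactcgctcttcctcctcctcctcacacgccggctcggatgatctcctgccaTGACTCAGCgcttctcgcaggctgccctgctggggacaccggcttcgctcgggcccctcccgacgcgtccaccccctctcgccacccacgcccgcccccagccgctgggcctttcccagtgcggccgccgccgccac
GCLM: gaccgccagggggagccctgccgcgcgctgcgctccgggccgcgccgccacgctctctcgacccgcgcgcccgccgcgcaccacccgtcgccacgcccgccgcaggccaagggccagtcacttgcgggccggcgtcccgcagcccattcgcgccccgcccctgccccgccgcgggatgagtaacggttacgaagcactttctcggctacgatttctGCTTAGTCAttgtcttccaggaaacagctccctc
ME1 was at 5685 and 5771 with shRNA 1, 3323 and 3821 with shRNA 2, and 2594 and 2630.2 in shGFP (log2 difference 0.68, SE 0.066, adjusted p = 2.88e-07). GCLM was at 5033 and 5304 with shRNA 1, 3819 and 3839.6 with shRNA 2, and 2929 and 2676 in shGFP (log2 difference 0.43, SE 0.058, adjusted p = 2.02e-05). In both genes the libraries of the hairpins did not overlap, which holds for every gene that passed, and all lay above shGFP. PGD and TXNRD1, which hold the element too, did not pass, and a match says nothing about binding.

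The AHR pathway, which senses aromatic compounds, had 6 of 10 genes higher with shRNA 1 and 0 higher with shRNA 2 under every scaling tried. The receptor gene AHR was at 1907 and 1925 with shRNA 1, 1174 and 1391 with shRNA 2, and 914 and 932 in shGFP (log2 difference 0.58, SE 0.083, adjusted p = 3.63e-05). Its target CYP1B1, a cytochrome P450, was at 465 and 427 with shRNA 1, 277 and 307 with shRNA 2, and 317 and 242 in shGFP (log2 difference 0.61, SE 0.13, adjusted p = 0.00166). CYP1A1 (0.39) and TIPARP (0.37) passed too. NQO1 and NFE2L2 belong to this list and to that of NRF2.

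Glycolysis and hypoxia genes were higher with shRNA 1 in 15 of 21 and with shRNA 2 in 1 (median log2 difference 0.29, 0.21 to 0.29 under the other scalings). The counts were 14 and 3 under totals without mitochondrial and RN7SL genes, and 12 and 2 under quantile normalization and without shRNA 2 replicate 2. PGAM1, the general form of phosphoglycerate mutase, was at 4448 and 4126 with shRNA 1, 2571 and 2510.2 with shRNA 2, and 2833 and 2820.0 in shGFP (log2 difference 0.75, SE 0.063, adjusted p = 4.60e-08). The enzymes GAPDH (0.47), PFKP (0.46), PKM (0.44), ENO1 (0.42), LDHA (0.40) and PGK1 (0.39) and the mitophagy receptors BNIP3L (0.37) and BNIP3 (0.29) shared the direction. The 1 gene higher with shRNA 2 was HK2, an inducible hexokinase, at 90.1 and 103 with shRNA 1, 188 and 161 with shRNA 2, and 316 and 345 in shGFP (log2 difference -0.85, SE 0.20, adjusted p = 0.00497), a call lost without shRNA 2 replicate 1 (adjusted p = 0.0506). The hypoxia targets VEGFA (0.017), SLC2A1 (0.18) and NDRG1 (-0.25) did not pass.

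Genes of the unfolded protein response, which act in folding in the endoplasmic reticulum, were higher with shRNA 1 in 12 of 20 and with shRNA 2 in 1 (median log2 difference 0.23), and in 9 and 1 after quantile normalization or with totals without mitochondrial and RN7SL genes. PDIA3 and PDIA4, disulfide isomerases, were 1.54-fold and 1.53-fold higher with shRNA 1 (adjusted p = 1.83e-08 and 7.90e-08). HSPA5, the main chaperone of this compartment, was at 21193 and 23958 with shRNA 1, 16642 and 16103 with shRNA 2, and 10429 and 10830.1 in shGFP (log2 difference 0.46, SE 0.057, adjusted p = 6.45e-06). CALR, the chaperone calreticulin, was the exception at 9959.6 and 10759.6 with shRNA 1, 14026 and 13702 with shRNA 2, and 25928 and 27408 in shGFP (log2 difference -0.42, SE 0.053, adjusted p = 9.22e-06). The integrated stress response passed in 22.7% of its genes, below the 27% of all genes compared, and showed no common direction. In this response 4 of 22 genes were higher with shRNA 1 and 1 with shRNA 2 (GPT2), and 3 and 3 after quantile normalization. Its central factor ATF4 was at 21876 and 21513 with shRNA 1, 16895 and 17249.9 with shRNA 2, and 15275 and 14219.6 in shGFP (log2 difference 0.35, SE 0.049, adjusted p = 3.23e-05). DDIT3 was 1.32-fold and SESN2 1.45-fold higher with shRNA 1. In these 3 genes both hairpins lay above the control.

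**Figure D5:**
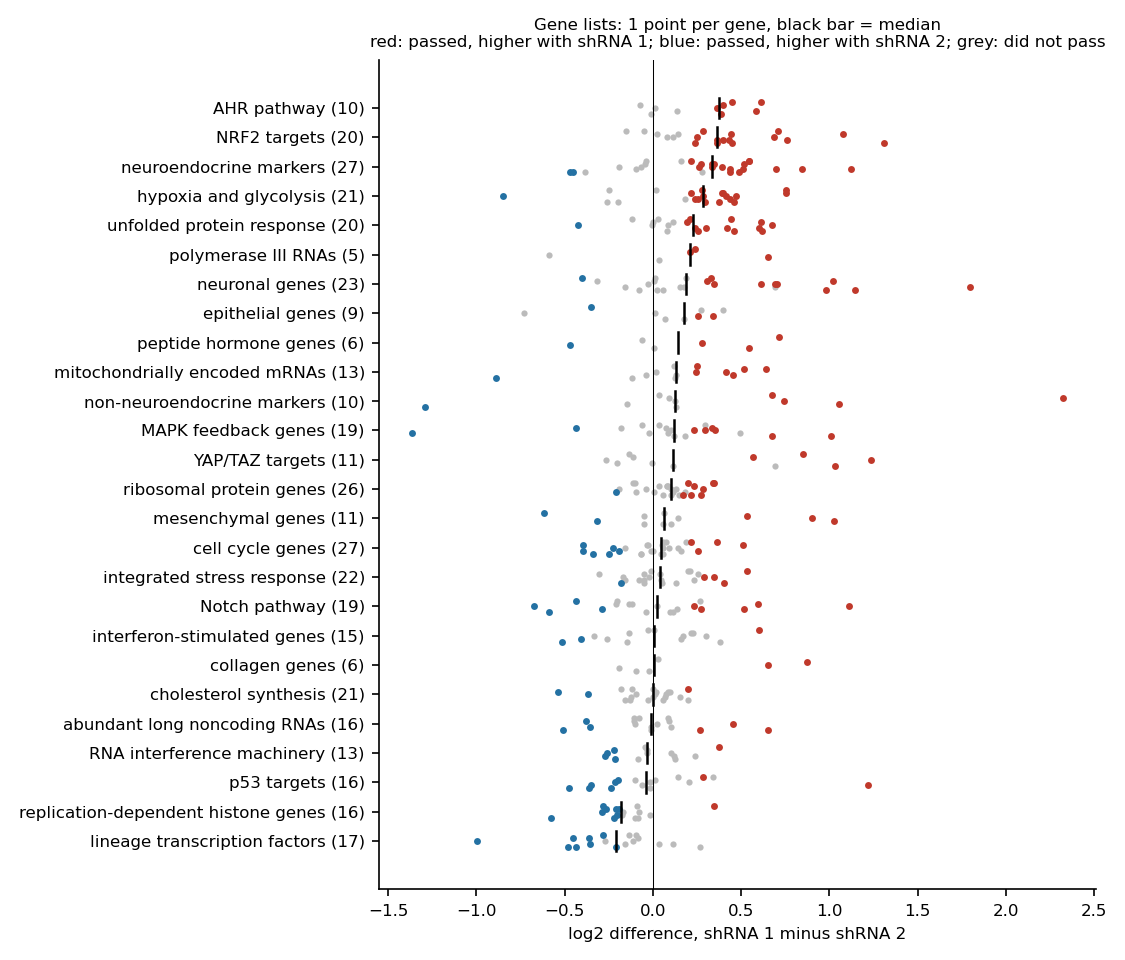
Log2 difference, shRNA 1 minus shRNA 2 (x axis), of each gene of the lists with at least 5 genes, with the number of genes in brackets and a black bar at the median; red and blue points passed and grey points did not. Medians run from -0.21 for lineage transcription factors to 0.38 for the AHR pathway.

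Genes of RNA interference, not all of which act on a hairpin, differed by small amounts. Of 13 genes of the RNA interference machinery, DICER1 was higher with shRNA 1 and AGO1, AGO2, AGO3 and DROSHA were higher with shRNA 2. DICER1 was at 12128 and 12383 with shRNA 1, 9227 and 9671 with shRNA 2, and 3874 and 4083 in shGFP (log2 difference 0.38, SE 0.052, adjusted p = 2.59e-05). AGO2, the Argonaute that cleaves its target, was at 3450.1 and 3311 with shRNA 1, 4072 and 4089 with shRNA 2, and 4733 and 4763 in shGFP (log2 difference -0.27, SE 0.06, adjusted p = 0.00268). Interferon-stimulated genes, which answer double-stranded RNA, passed in 3 of 15 (20%), below the 27% of all genes compared. EIF2AK2, the double-stranded RNA sensor PKR, was at 3913 and 4512 with shRNA 1, 6061 and 5954 with shRNA 2, and 5992 and 6165 in shGFP (log2 difference -0.52, SE 0.065, adjusted p = 8.99e-06). STAT2 was 1.32-fold higher with shRNA 2 and ISG15 1.52-fold higher with shRNA 1. The STAT2 call was lost without shRNA 2 replicate 1 (adjusted p = 0.0725), and that of ISG15 without the same library (adjusted p = 0.0738) and without shRNA 1 replicate 2 (adjusted p = 0.216).

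Targets of p53 were higher with shRNA 2 in 6 of 16 and with shRNA 1 in 2, and leaving out shRNA 1 replicate 1 or shRNA 2 replicate 2 left 3 higher with shRNA 2. CDKN1A, the cell cycle inhibitor p21, was at 1862 and 1659.6 with shRNA 1, 2338 and 2191 with shRNA 2, and 803 and 930.2 in shGFP (log2 difference -0.36, SE 0.075, adjusted p = 0.00146). RRM2B, a ribonucleotide reductase subunit, was at 2610.1 and 2513 with shRNA 1, 3473 and 3642 with shRNA 2, and 3461 and 3243 in shGFP (log2 difference -0.47, SE 0.063, adjusted p = 1.79e-05). GDF15, a secreted stress cytokine that other stress pathways also induce, was the largest in the other direction at 2002 and 1653 with shRNA 1, 836 and 727 with shRNA 2, and 234 and 192 in shGFP (log2 difference 1.22, SE 0.096, adjusted p = 2.08e-08). BTG2 (0.29) was the other gene higher with shRNA 1, and it did not pass without shRNA 1 replicate 2, without shRNA 2 replicate 2, under quantile normalization, under totals without mitochondrial and RN7SL genes, or with no filter on low values.

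Cell cycle genes were split, with 4 of 27 higher with shRNA 1 and 6 with shRNA 2, and without shRNA 1 replicate 1 there were 2 and 6. CDC6, which licenses replication origins, was at 2379.7 and 2328 with shRNA 1, 1597 and 1713 with shRNA 2, and 3573 and 3628 in shGFP (log2 difference 0.51, SE 0.071, adjusted p = 2.69e-05). E2F1, the S phase transcription factor, was at 934 and 1026 with shRNA 1, 1339 and 1239.6 with shRNA 2, and 859 and 902 in shGFP (log2 difference -0.40, SE 0.085, adjusted p = 0.00221). FOXM1, a factor of mitotic genes, was at 617 and 623 with shRNA 1, 816 and 817 with shRNA 2, and 1796 and 1828 in shGFP (log2 difference -0.40, SE 0.094, adjusted p = 0.00492). The proliferation marker MKI67 (-0.34) was also higher with shRNA 2, while TOP2A (-0.0084) and CDK1 (0.06) did not pass. Replication-dependent histone genes, which are near copies of each other, were higher with shRNA 2 in 8 of 16 and with shRNA 1 in 1 under the deposited scaling, and in 9 to 10 and 1 under quantile normalization and totals without mitochondrial and RN7SL genes. The 8 fell to 3 without shRNA 1 replicate 2 and to 4 without shRNA 2 replicate 2. The linker histone H1-3 was at 1438 and 1349 with shRNA 1, 1988 and 2168 with shRNA 2, and 2656 and 2487 in shGFP (log2 difference -0.58, SE 0.076, adjusted p = 1.40e-05). H2AC6 was the 1 gene higher with shRNA 1 (0.35).

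The counts of ribosomal protein genes moved with the scaling and the libraries: 8 of 26 were higher with shRNA 1 and 1 with shRNA 2 as deposited, 4 and 4 under quantile normalization and under totals without mitochondrial and RN7SL genes, 3 and 2 without shRNA 1 replicate 1, 11 and 0 without shRNA 1 replicate 2, and 5 and 0 without shRNA 2 replicate 2. RPL4 was at 41003 and 37195 with shRNA 1, 29693 and 31944 with shRNA 2, and 43330.5 and 40237 in shGFP (log2 difference 0.34, SE 0.055, adjusted p = 1.42e-04). Mitochondrially encoded mRNAs had 6 of 13 higher with shRNA 1 and 1 higher with shRNA 2, but 4 and 4 after quantile normalization. MT-ND1, a subunit of respiratory complex I, was at 205554 and 220060.0 with shRNA 1, 141368 and 131488 with shRNA 2, and 119782 and 138606 in shGFP (log2 difference 0.64, SE 0.056, adjusted p = 7.24e-08). MT-ND6, which is encoded on the opposite strand to the others, was higher with shRNA 2 at 1097 and 2169 with shRNA 1, 3399.8 and 2407 with shRNA 2, and 4986 and 6778 in shGFP (log2 difference -0.89, SE 0.19, adjusted p = 0.00202), and DESeq2 did not call it. RN7SL3, a near copy of RN7SL2, was at 102220.0 and 108507 with shRNA 1, 90906 and 87952 with shRNA 2, and 17984 and 17808 in shGFP (log2 difference 0.24, SE 0.051, adjusted p = 0.00226), and both hairpins lay far above shGFP.

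Non-neuroendocrine markers were higher with shRNA 1 in 4 of 10 and with shRNA 2 in 1, MYOF. TGFBI, an extracellular matrix protein, was at 262 and 243 with shRNA 1, 120.4 and 121 with shRNA 2, and 107 and 111 in shGFP (log2 difference 1.06, SE 0.17, adjusted p = 1.60e-04). The Notch pathway was split, with 5 of 19 higher with shRNA 1 and 4 higher with shRNA 2, and leaving out 1 library gave 3 and 2 (shRNA 1 replicate 2, or shRNA 2 replicate 2) or 4 and 2 (shRNA 2 replicate 1). HEY1, a repressor that Notch induces, was at 1806 and 1876 with shRNA 1, 810.4 and 895 with shRNA 2, and 362 and 391 in shGFP (log2 difference 1.11, SE 0.082, adjusted p = 7.58e-09). The receptor NOTCH2 was at 445 and 407 with shRNA 1, 678 and 683 with shRNA 2, and 577 and 586 in shGFP (log2 difference -0.68, SE 0.11, adjusted p = 1.19e-04). The target HEY1 and the receptor NOTCH2 thus differed in opposite directions, and HEY1 lay above the control with both hairpins. Among MAPK feedback genes 6 of 19 were higher with shRNA 1 and 2 higher with shRNA 2, with IER3 at 1249.5 and 1312 with shRNA 1, 663 and 608 with shRNA 2, and 679 and 779 in shGFP (log2 difference 1.01, SE 0.09, adjusted p = 9.94e-08).

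Of 11 genes of the YAP/TAZ list, 4 were higher with shRNA 1 and 0 higher with shRNA 2. Totals without mitochondrial and RN7SL genes, however, called TGFB2 (-0.20 as deposited) the other way. Among the 4 was WWTR1, which encodes TAZ itself rather than a target (log2 difference 1.03, adjusted p = 0.0216). Its call was lost with DESeq2 (adjusted p = 0.0523) and in limma with no filter on low values (adjusted p = 0.0509), each leaving 3. The difference of WWTR1 was 0.80 without shRNA 1 replicate 1 and 0.57 without shRNA 2 replicate 1, and it did not pass in either fit. CRIM1, a membrane protein that binds growth factors, was at 611 and 547 with shRNA 1, 227 and 264 with shRNA 2, and 219 and 213 in shGFP (log2 difference 1.23, SE 0.13, adjusted p = 8.75e-07). F3, the tissue factor that starts coagulation, was at 924 and 948 with shRNA 1, 498 and 541 with shRNA 2, and 343 and 306 in shGFP (log2 difference 0.85, SE 0.097, adjusted p = 2.69e-06). Mesenchymal genes were split, with 3 of 11 higher with shRNA 1 and 2 higher with shRNA 2. TNC, a matrix glycoprotein, was at 2508 and 2495 with shRNA 1, 1212 and 1246 with shRNA 2, and 1364 and 1237 in shGFP (log2 difference 1.03, SE 0.071, adjusted p = 3.42e-09). FN1, fibronectin, was at 478 and 511 with shRNA 1, 742 and 776 with shRNA 2, and 3035 and 2954 in shGFP (log2 difference -0.62, SE 0.10, adjusted p = 1.78e-04). LUM, a matrix proteoglycan listed as a fibroblast marker, was at 797 and 746 with shRNA 1, 362 and 442 with shRNA 2, and 121 and 97.8 in shGFP (log2 difference 0.95, SE 0.11, adjusted p = 5.70e-06). PDGFRA, a growth factor receptor and also a fibroblast marker, was at 64.9 and 42.1 with shRNA 1, 93.7 and 84.7 with shRNA 2, and 314 and 258 in shGFP and did not pass (log2 difference -0.76, adjusted p = 0.0676). The other 6 fibroblast markers reached at most 16.6 in the 4 knockdown libraries, and COL1A2 and COL3A1 at most 2.07. Among collagens, COL4A1 (0.88) and COL6A1 (0.65) of 6 passed.

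Cholesterol synthesis genes passed in 3 of 21, below the background share. DHCR7, the last enzyme of the pathway, was at 1022 and 951 with shRNA 1, 1400.3 and 1459 with shRNA 2, and 1398 and 1244 in shGFP (log2 difference -0.54, SE 0.082, adjusted p = 7.90e-05). Of 16 abundant long noncoding RNAs, 3 were higher with each hairpin. H19, an imprinted transcript, was at 3120.2 and 2861 with shRNA 1, 1925 and 1874 with shRNA 2, and 4232 and 4546 in shGFP (log2 difference 0.65, SE 0.069, adjusted p = 9.04e-07). NEAT1, the scaffold of nuclear paraspeckles, was at 6159.7 and 7335 with shRNA 1, 5023 and 4797 with shRNA 2, and 2970.4 and 3528 in shGFP (log2 difference 0.45, SE 0.069, adjusted p = 7.89e-05). KCNQ1OT1, which overlaps KCNQ1 on the other strand, was higher with shRNA 2 (-0.51). Epithelial genes passed in 3 of 9, and in 1 without shRNA 1 replicate 1, with EPCAM, an adhesion molecule of epithelia, at 3552 and 3732 with shRNA 1, 2788 and 2961 with shRNA 2, and 3860.2 and 3856 in shGFP (log2 difference 0.34, SE 0.064, adjusted p = 5.92e-04). The 1 lung epithelial gene of 3 that passed was NKX2-1, described above, and of the blood and endothelial markers PECAM1 alone had enough counts and did not pass (-0.13).

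How often a gene passed rose with its level. Of genes with a mean of 50 to 100, 9.24% passed, and of those above 3000, 41.9% did. Protein-coding genes passed in 28.9% and long noncoding RNAs in 16.1%, groups that also differ in level. The passed genes were spread over chromosomes 1 to 22 and X, from 18.6% of 851 genes on chromosome 19 to 34.7% of 239 on chromosome 13. Of 21 mitochondrial genes, 42.9% passed.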

How the data were processed

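Total RNA libraries of SHP77 were grouped by the hairpin and replicate in their labels. The values deposited are a signal, the count of each gene after normalization by the authors. The submitters' processing notes name cutadapt 2.5, STAR 2.5.2b, DESeq2 and the build hg38, and per the labels the kit was stranded. The annotation, counting tool and use of strand are not given in the sources used here, so overlapping, antisense and near-identical genes are uncertain. All values were whole multiples of a step per library (100% within 0.05 reads), which gave whole reads. Non-human features (55) and copies on chromosome Y (7) were left out. A symbol was found for 98.5% of genes.

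In R 4.3.3, limma 3.58.1 (eBayes with trend) was fitted to log2(normalized count + 1) of the 4 knockdown libraries, for genes with a mean of at least 10, two-sided, with Benjamini-Hochberg adjustment over 18027 genes and a threshold of 0.05. On that scale, differences of genes with few counts come out too small. edgeR 4.0.16 and DESeq2 1.42.0 were run on recovered reads as alternatives, and the limma fit was tested on simulated data. Replicates differed beyond counting error (chi-square per degree of freedom 5.36 and 5.85), but p-values measure only the spread between libraries, which may be technical.

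The genes compared and the 29 gene lists were chosen with earlier results of these data known. Genes named were RMST, SOX2 and NKX2-1; the 12 largest passed differences in each direction with a symbol and no overlap; the 6 largest with a mean of at least 1000; the 5 largest on opposite sides of shGFP; the 4 largest with 1 hairpin alone at most 25% above or 20% below shGFP; and up to 3 per list. Other list genes named illustrate a list and were chosen after their values were seen. Some genes are not reported here and were left out of the lists and the marker check. Alternatives varied the pseudocount, filter, scaling, libraries fitted, tool and replicates.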

Additional observations from a re-analysis of the deposited data

How the results depend on the processing

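With 2 libraries per hairpin, the calls lean on the spread pooled over genes: limma without a trend called 0 genes (0 higher with shRNA 1, 0 higher with shRNA 2, 0 genes of the lists), with 3418 at an unadjusted p under 0.05, where edgeR called 3668 and DESeq2 3108. The cause was not tested. Requiring at least 2-fold as well left 224 genes (148 and 76) and 16 genes of the lists, against 191 list genes without it. Equal totals without mitochondrial and RN7SL genes raised the genes higher with shRNA 2 from 1518 to 2372. Leaving out 1 library gave 2692 to 3026 genes, 1572 to 1861 higher with shRNA 1 and 1055 to 1167 higher with shRNA 2, and 162 to 172 list genes. The replicate block gave 3889 genes, and 3321 with all 6 libraries in the fit. The labels give numbers but no pairing, and same-numbered deviations correlated at -0.045. The difference in RMST, which did not pass, reversed to -0.051 without circRMST shRNA 2 replicate 1. Without 1 library in turn it ran from -0.051 to 0.23.

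Of 124 genes tried, 123 lost their call without the trend. Under other settings than leaving out a library, VTRNA1-3, CLDN3, MYCL, WWTR1, RN7SL2, SOX2, SQLE, ZMYND10, KRT8 and MT-ND6 lost it at least once. Genes with few reads limit the depth of any statement: 9.24% of those with a mean of 50 to 100 passed.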

Other observations

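The siRNA libraries of the series, made from poly(A) RNA and normalized separately, give outside reference values for the genes that differed between the hairpins, with a minimum mean of 50 in that table. Of the 2147 genes higher with shRNA 1, 2062 were measured there. Their median log2 difference from si-control was -0.069 with NKX2-1 siRNAs and -0.071 with SOX2 siRNAs, and 38.2% and 41.8% lay above 0, against 48% and 51.8% of the 12231 genes of the comparison that were measured. Of the 148 with at least 2-fold, 120 were measured, with medians of -0.18 and -0.34. The 1423 measured genes higher with shRNA 2 had medians of 0.023 and 0.056, with 53.9% and 56.4% above 0. The 52 measured of the 76 with at least 2-fold had medians of -0.0098 and -0.34. These values carry no test.

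The median span of a gene from start to end was 43.2 kb for genes higher with shRNA 1, 33.7 kb for genes higher with shRNA 2 and 28.9 kb for genes that did not pass, over the 97.8%, 94.5% and 93.4% of them with a RefSeq position.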
